A study of Mus musculus with 32 samples.

Results

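Mouse embryonic stem cells lacking the DNA-binding protein RBPJ were followed for 16 h after withdrawal of 2i, to ask which genes of the early exit from naive pluripotency still respond. The 6 Rbpj-KO libraries were chosen by genotype and culture condition from the labels, out of 32 libraries in the series. They come from 3 clonal lines (c28, c33 and c36), each sampled once in 2i and once at N16h, 16 h after transfer to N2B27, the basal medium without inhibitors. 2i is N2B27 with the MEK inhibitor PD0325901 and the GSK3 inhibitor CHIR99021. According to the paper, all lines were routinely grown in CHIR99021 with the cytokine LIF. They were moved to 2i only for a short period before the assay. For comparison, 6 RGd2 libraries cover the same conditions: in each, 2 libraries are of the parental line and 1 is of a clonal line derived from it. All 12 libraries carry the Rex1::GFPd2 reporter, since the mutant lines were made in RGd2 by CRISPR/Cas9, and each mutant line is 1 clone. Gene counts ranged from 13394552 to 32347193 per library in Rbpj-KO 2i and from 18855525 to 25857469 in Rbpj-KO N16h. In RGd2 they ranged from 5986857 to 46695457. The shallowest was RGd2 2i replicate 33.

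In 2i, MEK inhibition holds ERK signalling low, and GSK3 inhibition stabilises beta-catenin, which relieves TCF3 repression of naive genes. On withdrawal both act again: naive factors decline and formative genes such as Otx2 and Pou3f1 are switched on. RBPJ binds DNA in the absence of Notch signalling with corepressors, and turns into an activator when the Notch intracellular domain joins it. Hes1, Hey1 and Nrarp are classical targets.

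The 2 guide RNAs used against Rbpj are shown because they define the mutants, with the PAM in capitals. Both match the minus strand of GRCm38, in coding sequence of 6 and 5 of 12 annotated Rbpj transcripts respectively.
Guide to exon 5, chr5:53645980-53645999: tgacctttatccgcttgctgAGG
Guide to exon 7, chr5:53649718-53649737: gcttgacagtctgcccgtaaTGG
Reads from Rbpj were still counted in the mutants. The gene gave 976, 1066 and 1249 normalized counts (counts divided by the spike-in size factor) in 2i in c28, c33 and c36, and 2497, 2796 and 2797 at N16h. RGd2 had 5097, 4328 and 3981 in 2i and 12766, 12630 and 12327 at N16h. Every mutant library was below every RGd2 library. The remaining transcript of the 3 clones rose on withdrawal by 1.30 ± 0.21 on the log2 scale (edgeR quasi-likelihood test, adjusted p = 4.24e-06), beside 1.49 ± 0.21 in RGd2. Here and below, errors on log2 fold changes are approximate standard errors from the fit of all 32 libraries, not from the clones alone. A gene total does not show whether a transcript is intact.

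Of 11785 genes with a mean of at least 1 FPKM in either Rbpj-KO condition, 1392 (11.8%) were called higher and 1907 (16.2%) lower at N16h, at an adjusted p under 0.05 in edgeR's quasi-likelihood test with the clone as a block. The median log2 fold change over these genes was -0.04. Of the 3299 called genes, 3292 had the same sign in all 3 clones, beside 62.8% of all genes past the FPKM minimum. The genes were called on these same libraries, so a shared sign is largely built into the call and is a description. Without Rbpj-KO 2i replicate 28 the genes called lower numbered 1114, and without Rbpj-KO N16h replicate 19 they numbered 1108. Both are libraries of c28. These are bulk samples, in which fewer cells of a type and less RNA per cell cannot be told apart.

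Most genes that moved at least 2-fold in RGd2 moved the same way in Rbpj-KO, and these responses share no libraries. In RGd2, where 1039 (8.84%) of genes were called higher and 4258 (36.2%) lower, 450 (3.83%) were called higher with a log2 fold change of at least 1. Of these, 351 (78.0%) were called higher in Rbpj-KO, 99 were not called and none was called lower, and 443 had a positive log2 fold change. Of 933 (7.94%) called lower by the same measure in RGd2, 715 (76.6%) were called lower in Rbpj-KO, 212 were not called and 6 were called higher. The background was 11.8% of genes called higher and 16.2% called lower. The median log2 fold change of the RGd2-risen genes was 1.55 in Rbpj-KO and 1.57 in RGd2, and that of the RGd2-fallen genes was -0.89 in Rbpj-KO and -1.46 in RGd2. The genes were selected on the RGd2 values, so the RGd2 medians are a description. In the other direction, 524 genes (4.45%) rose at least 2-fold in Rbpj-KO and 397 of them (75.8%) were called higher in RGd2, and 413 (3.5%) fell at least 2-fold and 370 of them (89.6%) were called lower.

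The difference of the responses, Rbpj-KO minus RGd2, was tested directly. Over 12174 genes past the FPKM minimum, 456 (3.75%) were called higher and 31 (0.255%) lower. The split moved with the scaling. The median difference over all genes was 0.18 on the log2 scale with spike-in size factors and -0.01 with TMM, and TMM called 304 genes higher and 135 lower. Of the 456 and the 31, TMM also called 300 and 30. Values of the difference below are on the spike-in scale and are to be read against that shift. Of the 456 genes, 351 fell in RGd2: 183 of them also fell in Rbpj-KO, 141 were not called there and 27 rose. A further 55 rose in Rbpj-KO and were not called in RGd2, and 31 rose in both. Of the 31 genes, 20 rose in both genotypes. The count called higher was 1104 without RGd2 2i replicate 33, the shallow library. It was 223 and 219 without Rbpj-KO 2i replicates 29 and 30, 210 and 230 without Rbpj-KO N16h replicates 20 and 21, 227 without RGd2 2i replicate 31 and 274 without RGd2 N16h replicate 23. The count called lower was 54 without RGd2 2i replicate 33. It was 16, 17 and 17 without Rbpj-KO 2i replicates 28, 29 and 30, 19, 17 and 17 without Rbpj-KO N16h replicates 19, 20 and 21, 18 without RGd2 2i replicate 32 and 20 without RGd2 N16h replicate 23.

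**Figure D1:**
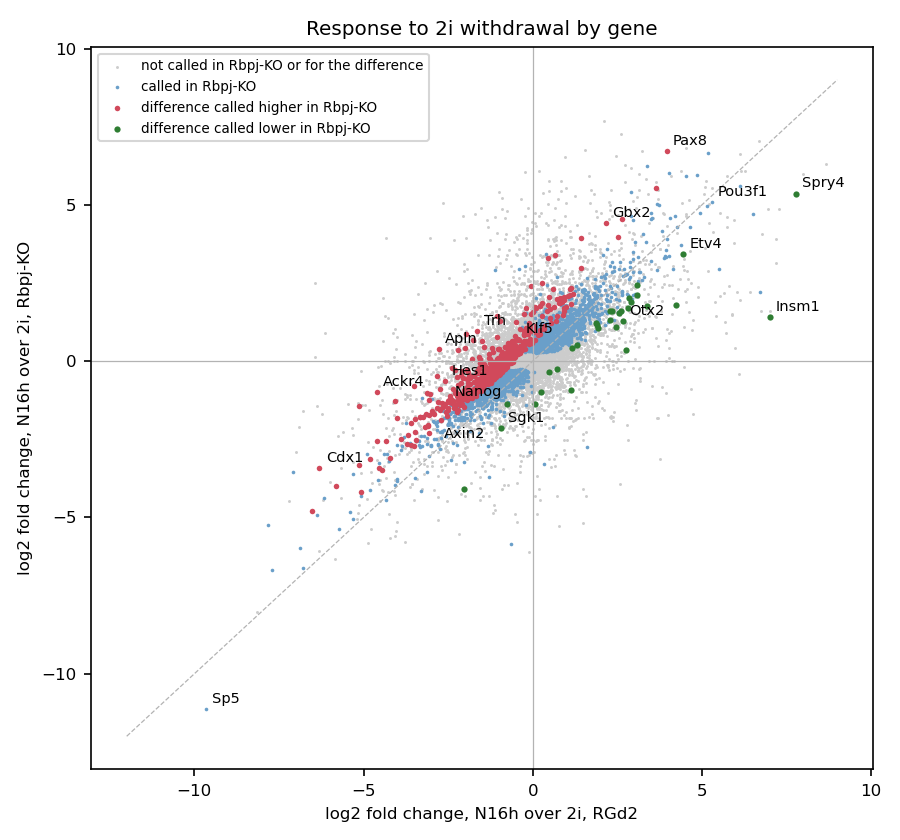
Log2 fold change at N16h over 2i in RGd2 (x axis) and Rbpj-KO (y axis), 1 point per gene tested, coloured by the call in Rbpj-KO and by the call for the difference; the dashed line marks equal responses. The 456 genes called higher for the difference lie above the line and the 31 called lower lie below it.

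Most naive factors fell without RBPJ, and several fell less far than in RGd2. Of 16 naive pluripotency factors tested, 9 were called lower in Rbpj-KO, 3 higher and 4 neither (background 16.2% lower and 11.8% higher). The difference was called higher for 9 and lower for none, against 3.75% of all genes. The median log2 fold change of those past the FPKM minimum was -0.75 in Rbpj-KO and -1.39 in RGd2, beside -0.04 and -0.22 over all genes. Nanog, a homeodomain factor of the naive network, gave 31495, 29085 and 26990 normalized counts in c28, c33 and c36 in 2i and 12068, 11635 and 11364 at N16h. In RGd2 it gave 29105, 25360 and 20532 in 2i and 4400, 4466 and 4567 at N16h. The groups did not overlap at N16h, where every mutant library was above every RGd2 library, and they overlapped in 2i. Nanog fell by 1.32 ± 0.11 on the log2 scale in Rbpj-KO and by 2.48 ± 0.11 in RGd2, a difference of 1.16 ± 0.15 (adjusted p = 2.17e-06; 0.98 with TMM).

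Tbx3, a T-box factor, gave 5608, 4125 and 4617 normalized counts in 2i and 2158, 2158 and 2231 at N16h in Rbpj-KO. In RGd2 it gave 4046, 3014 and 3626 in 2i and 709, 704 and 835 at N16h. It fell in both genotypes, with a difference of 1.13 ± 0.22 (adjusted p = 0.000929; 0.95 with TMM). Prdm14, which represses differentiation genes, fell by 1.5 ± 0.13 in Rbpj-KO and by 2.83 ± 0.13 in RGd2. Esrrb, an orphan nuclear receptor, fell by 0.75 ± 0.11 and by 1.43 ± 0.12 respectively. Klf2 and Nr5a2 also fell less, with differences of 0.94 and 0.58, but these were not called with TMM. Klf4 and Tfcp2l1 fell by 1.26 ± 0.12 and 1.87 ± 0.14 in Rbpj-KO, and neither difference was called. The difference of Klf4 was 0.13 ± 0.17 with spike-ins and -0.06 with TMM.

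Klf5 moved in opposite directions with spike-in scaling. This Krüppel-like factor gave 1082, 889 and 999 normalized counts in 2i and 1438, 1541 and 1794 at N16h in Rbpj-KO, where all clones rose. RGd2 had 1539, 1196 and 1187 in 2i and 1066, 974 and 920 at N16h. The log2 fold changes were 0.69 ± 0.15 and -0.41 ± 0.15. The fall in RGd2 is to be read against the RGd2 median over all genes, -0.22 with spike-ins and -0.02 with TMM. Gbx2, a homeobox gene, rose from 35.8, 61.8 and 51.3 to 936, 999 and 1314 normalized counts in Rbpj-KO, and from 233, 190 and 254 to 1069, 918 and 985 in RGd2. The groups at N16h overlapped, and the larger rise in the mutant (4.42 ± 0.20 against 2.15 ± 0.17) started from a lower level in 2i. Nr0b1, an orphan nuclear receptor, rose by 1.90 ± 0.13 and by 0.87 ± 0.13 in RGd2. Zfp42, which encodes REX1, was not called in either genotype.

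**Figure D2:**
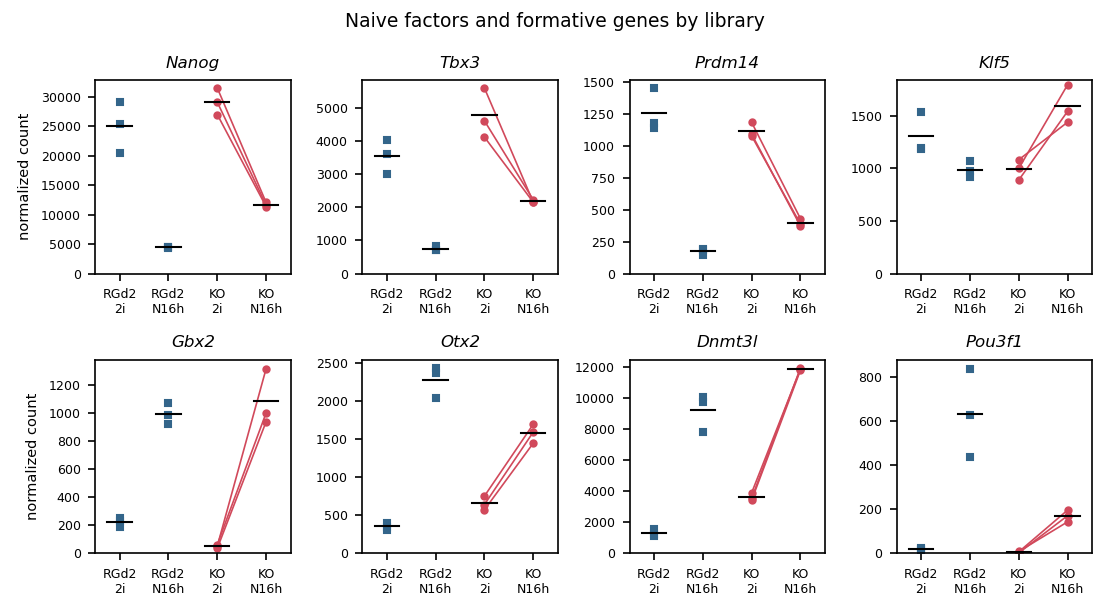
Normalized counts (y axis, from 0) of naive genes, formative genes and Dnmt3l in each library, by genotype and condition. Squares are RGd2 libraries, circles are Rbpj-KO libraries joined by clone and bars are group means. At N16h the mutant libraries lie above RGd2 for Nanog, Tbx3, Prdm14 and Klf5 and below it for Otx2 and Pou3f1.

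Most formative genes still rose. Of 18 formative genes tested, 14 were called higher in Rbpj-KO, 0 lower and 4 neither (background 11.8% higher). The median of those past the FPKM minimum was 1.67 in Rbpj-KO and 1.46 in RGd2. The difference was called higher for 3 and lower for 2, against 3.75% and 0.255% of all genes. Of those called higher, Lef1 and Ccnd2 were not called with TMM, and Lef1 passed the FPKM minimum only through RGd2. Pou3f1, which encodes the POU factor OCT6, rose from 8.4, 1.8 and 6.7 to 143, 171 and 196 normalized counts. RGd2 rose from 17.9, 13.8 and 24.2 to 836, 627 and 436, so every mutant library at N16h was lower. The log2 fold changes were 5.08 ± 0.39 and 5.28 ± 0.30, and their difference, -0.20 ± 0.73, was not called. Fgf5, a growth factor of the post-implantation epiblast, rose by 3.28 ± 0.39, Grhl2, an epithelial factor, by 4.30 ± 0.20, and the de novo DNA methyltransferases Dnmt3a and Dnmt3b by 1.72 ± 0.12 and 1.63 ± 0.13. None of these had a called difference, which is a test of changes and not of levels. Their levels at N16h are not compared here.

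Otx2 and Dnmt3l rose less than in RGd2. Otx2, a homeodomain factor of the formative transition, rose from 640, 571 and 751 to 1590, 1444 and 1693 normalized counts in Rbpj-KO. In RGd2 it rose from 403, 351 and 303 to 2432, 2363 and 2030. The mutant was higher in 2i and lower at N16h, without overlap, and the difference of the responses was -1.39 ± 0.17 (adjusted p = 7.12e-07; -1.59 with TMM). Dnmt3l, a cofactor of the de novo methyltransferases, rose by 1.72 ± 0.12 and by 2.83 ± 0.13 in RGd2, and Sall2, a zinc-finger factor, by 1.16 ± 0.13 and by 1.90 ± 0.13. Sox4 rose more in the mutant (difference 1.03 ± 0.22). Lef1, a TCF-family factor, rose from 48.4, 35.8 and 44.6 to 178, 219 and 219 normalized counts in Rbpj-KO. In RGd2 it rose from 1790, 1483 and 1236 to 3711, 3393 and 2659. The mutant rose by more (difference 1.20 ± 0.27) but remained far below RGd2, and that difference was not called with TMM. Lef1 was under 1 FPKM in the mutant, so its rise there could not be called. Of 12 general pluripotency genes, 10 were called higher and 0 lower in Rbpj-KO (background 11.8% and 16.2%). Utf1 rose by 1.90 ± 0.16 and Sox2 was not called (-0.21 ± 0.11).

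Most genes of ERK feedback rose, Spry4 and Etv4 from a higher level in 2i than in RGd2. Of 14 feedback inhibitors and PEA3 factors, 11 were called higher and 0 lower in Rbpj-KO (background 11.8% and 16.2%). Their median was 1.39, beside 1.74 in RGd2. Spry4, an inhibitor of receptor tyrosine kinase signalling, rose from 96.8, 76.1 and 78.2 to 3254, 3096 and 3767 normalized counts. In RGd2 it rose from 8.1, 9.2 and 16.2 to 2144, 1955 and 2301. Each mutant library exceeded each RGd2 library in the same condition, while the difference of the log2 responses was -2.42 ± 0.29 (adjusted p = 2.97e-07; -2.64 with TMM). Etv4, an ETS factor of the PEA3 group, rose from 642, 464 and 525 to 5637, 5624 and 6147 normalized counts in Rbpj-KO. In RGd2 it rose from 120, 116 and 105 to 2545, 2223 and 3017. Its difference was -1.0 ± 0.17, and that of Dusp6, an ERK phosphatase, was -0.64 ± 0.18, a call lost in 10 of 19 alternatives. Spred1, another inhibitor of the pathway, rose by 1.21 ± 0.12 with no called difference. Etv5 was not called. Of 14 immediate early genes, 5 passed the FPKM minimum in Rbpj-KO. There 2 were called higher and 0 lower, beside 11.8% and 16.2% of all genes, and Myc rose by 1.68 ± 0.16.

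Most Wnt targets fell. Of 15 beta-catenin targets and TCF factors tested, 9 were called lower and 0 higher in Rbpj-KO. Only 10 passed the FPKM minimum, on which the background of 16.2% lower rests. Their median was -1.28, beside -1.18 in RGd2. Lef1, also in this list, rose in Rbpj-KO but stayed under 1 FPKM there, so its rise could not be called. Axin2, a feedback inhibitor of the pathway, fell from 2792, 2060 and 1941 to 430, 291 and 358 normalized counts in Rbpj-KO. It fell by 2.65 ± 0.13, and RGd2 fell by 2.80 ± 0.13, and the difference, 0.14 ± 0.18, was not called and was -0.04 with TMM. Sp5, a zinc-finger target, gave 177, 212 and 173 raw counts in 2i and 0 in all mutant libraries at N16h, at least 64.5-fold lower against a floor of 3 counts per library. Cdx1 and Cdx2, caudal homeobox genes, fell by 3.43 ± 0.18 and fell by 6.62 ± 0.48 respectively. Cdx1 gave 99.2, 47.8 and 105 normalized counts at N16h, above the 15.5, 9.9 and 16.4 of RGd2, and its difference was 2.87 ± 0.30 (adjusted p = 1.16e-08). Among 16 Nodal and BMP genes, 7 were called lower and 2 higher in Rbpj-KO (background 16.2% and 11.8%). The Nodal antagonist Lefty2 fell by 3.96 ± 0.17, close to the 4.06 ± 0.17 of RGd2, and Bmp4 rose by 1.61 ± 0.18, a difference of 1.19 ± 0.26.

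**Figure D3:**
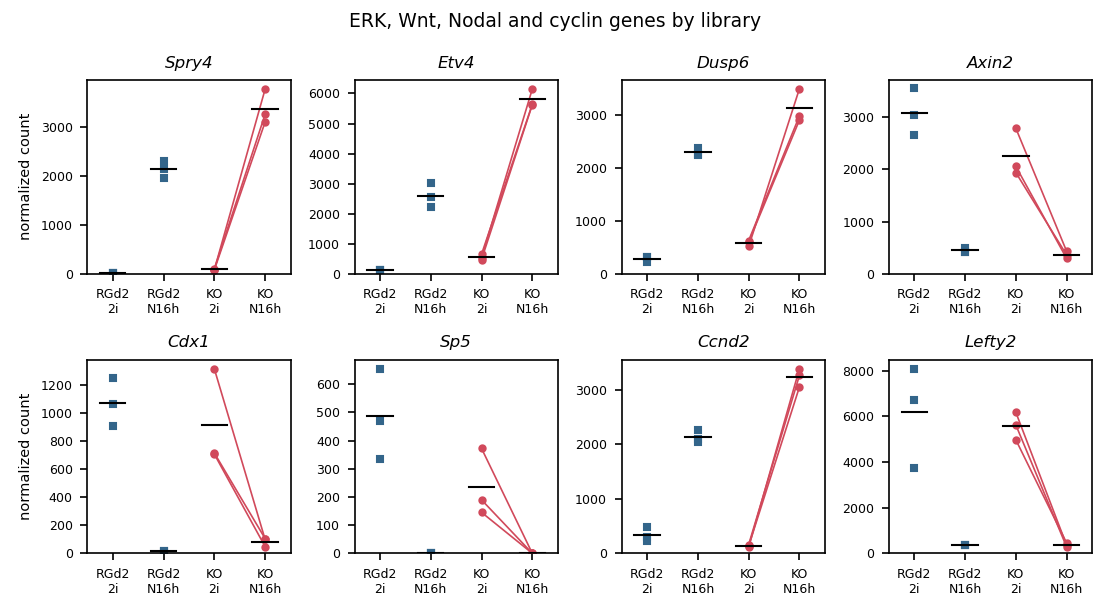
Normalized counts (y axis, from 0) of ERK, Wnt, Nodal and cyclin genes in each library; squares are RGd2 libraries, circles are Rbpj-KO libraries joined by clone and bars are group means. Spry4, Etv4 and Ccnd2 are higher at N16h in Rbpj-KO than in RGd2, and Axin2, Sp5 and Lefty2 fall in both genotypes.

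The RBPJ targets Hes1, Hey1 and Nrarp were higher in the mutant in both conditions, and their responses differed from RGd2. Of 11 HES/HEY, ID and other Notch-RBPJ targets tested, 3 were called higher, 4 lower and 4 neither in Rbpj-KO. The list had 8 members past the FPKM minimum, on which the background of 11.8% higher and 16.2% lower rests. The difference was called higher for 5 and lower for none, against 3.75% of all genes called higher. Its median over the members past the FPKM minimum was 1.99 (1.79 with TMM), beside 0.18 (-0.01) over all genes. Hes1, a bHLH repressor, gave 1058, 833 and 920 normalized counts in 2i and 625, 590 and 588 at N16h in Rbpj-KO. In RGd2 it gave 482, 360 and 646 in 2i and 78.4, 70.0 and 94.1 at N16h. All mutant libraries were higher in each condition, and the gene fell by 0.63 ± 0.14 in Rbpj-KO and it fell by 2.58 ± 0.17 in RGd2 (difference 1.95 ± 0.22, adjusted p = 7.01e-08). Nrarp, a feedback inhibitor of Notch signalling, rose in the mutant, from 229, 199 and 190 to 388, 322 and 409 normalized counts. It fell in RGd2 from 51.1, 42.0 and 121 to 12.6, 14.1 and 19.4. No mutant library overlapped RGd2, and the difference was 2.83 ± 0.32. Hey1, another bHLH repressor, gave 271, 252 and 218 normalized counts in 2i and 167, 172 and 188 at N16h in Rbpj-KO, beside 8.9, 6.8 and 9.2 at N16h in RGd2. Id4, an inhibitor of bHLH factors, fell by 2.55 ± 0.19 and by 4.59 ± 0.24 in RGd2. Id3 rose by 0.37 ± 0.12, a call lost in 6 of 19 alternatives, with no called difference.

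The responses of Notch1 and Notch4 also differed. Notch4 rose by 0.43 ± 0.14 in Rbpj-KO and fell by 1.21 ± 0.14 in RGd2, a difference of 1.64 ± 0.20 (adjusted p = 2.97e-07). Notch1 was not called in Rbpj-KO (0.01 ± 0.11) and fell by 0.84 ± 0.11 in RGd2. The rise of Notch4 in Rbpj-KO lost its call in 4 of 19 alternatives. The ligand gene Jag1 fell by 0.86 ± 0.14 and by 1.68 ± 0.15, and the call for its difference was lost in 7 of 19. Of 17 Notch receptors, ligands and cofactors, 11 passed the FPKM minimum in Rbpj-KO. There 3 were called higher and 3 lower, beside 11.8% and 16.2% of all genes past that minimum. For the difference 3 were called higher, beside 3.75%. Gadd45g, a growth-arrest gene, was nearly silent in the mutant, with 1, 9 and 13 raw counts in 2i and 10, 5 and 7 at N16h. In RGd2 it gave 239, 230 and 24 raw counts in 2i and 1176, 1595 and 581 at N16h, and rose by 2.18 ± 0.23. The difference, -2.00 ± 0.65, did not pass the test (adjusted p = 0.0828).

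**Figure D4:**
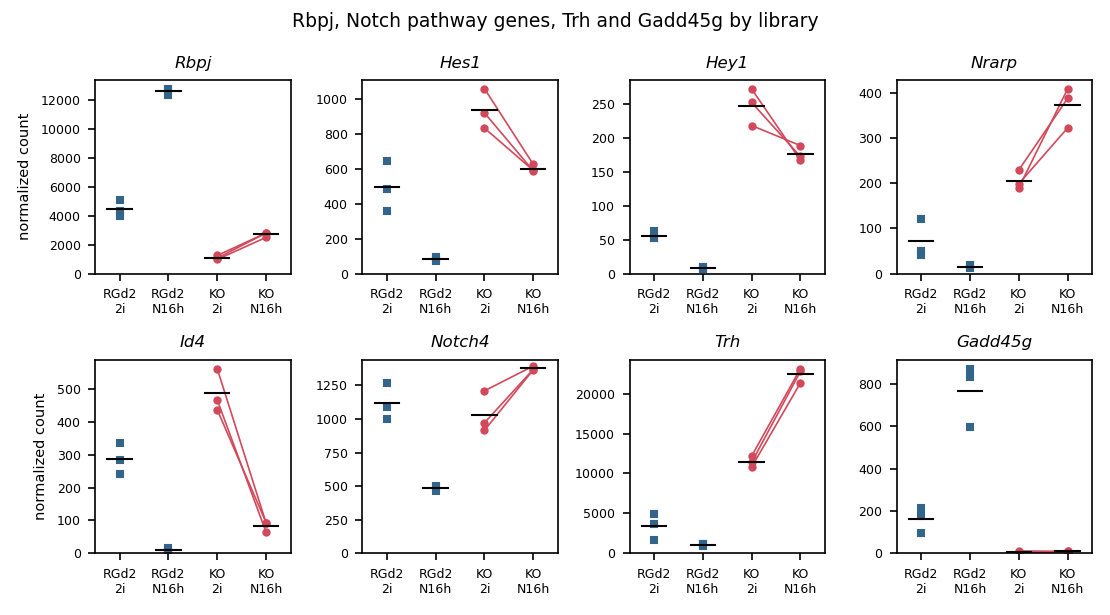
Normalized counts (y axis, from 0) of Rbpj, Notch pathway genes, Trh and Gadd45g in each library; squares are RGd2 libraries, circles are Rbpj-KO libraries joined by clone and bars are group means. Hes1, Hey1, Nrarp and Trh are higher in every mutant library than in any RGd2 library of the same condition, and Gadd45g and Rbpj are lower.

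The core RBPJ motif, TGGGAA or its reverse complement TTCCCA on either strand, was looked for in RefSeq promoters of GRCm38.p6, from 250 bases before to 50 after the start. It stood in 25.5% of 27025 promoters and in 22.6% of the 8707 promoters of genes past the FPKM minimum in the difference test. It stood in 26.0% of 346 promoters of genes called higher for the difference and in 3 of 22 promoters of those called lower. The promoters of Nanog, whose response differed, and of Rbpj, the targeted gene, are shown with the motif in capitals. A match is a description and not a bound site.
Nanog, chr6:122707239-122707538, plus strand: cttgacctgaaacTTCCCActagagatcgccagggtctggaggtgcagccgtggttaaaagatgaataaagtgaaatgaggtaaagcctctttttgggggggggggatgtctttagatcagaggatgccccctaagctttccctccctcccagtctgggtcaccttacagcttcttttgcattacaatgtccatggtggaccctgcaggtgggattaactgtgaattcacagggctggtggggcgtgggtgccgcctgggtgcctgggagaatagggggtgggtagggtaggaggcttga
Rbpj, chr5:53590096-53590395, plus strand: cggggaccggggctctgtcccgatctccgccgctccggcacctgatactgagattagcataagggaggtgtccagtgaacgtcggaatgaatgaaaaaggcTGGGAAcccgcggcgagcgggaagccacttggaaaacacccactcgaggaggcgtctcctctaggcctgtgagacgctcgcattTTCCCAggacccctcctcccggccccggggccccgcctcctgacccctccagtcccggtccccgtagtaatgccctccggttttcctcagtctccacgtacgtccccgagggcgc

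Over all genes, whether in a list or not, the 10 largest rises in Rbpj-KO with the same sign in all clones were of Pax8, Prss46, Atp1a4, Slc35d3, Tnfsf11, Inhbb, Spry4, Pou3f1, Cd14 and Prss50. Pax8, a paired-box factor, rose from 1, 2 and 5 to 402, 213 and 226 raw counts. RGd2 started at 46, 49 and 9 raw counts and reached 893, 1161 and 470, so the rise was larger in the mutant by 2.75 ± 0.46 but ended lower in FPKM, at 2.06 against 3.93. Inhbb, an activin subunit, rose by 5.53 ± 0.29 and by 3.64 ± 0.25 in RGd2. Prss46, a serine protease, had 2 raw counts in 2i over the 3 clones and 149 at N16h, a ratio of 82.6 (95% counting interval 22.5 to 688). The 10 largest falls were of Sp5, Pglyrp1, Cdx2, Adgrg5, Cyp1a1, S1pr1, Pkd1l2, Rtl8c, Lrrc15 and Spic. Their log2 fold changes in Rbpj-KO ran from -11.12 to -4.80, the first depending on the prior count. Among them Spic, an ETS factor, had a called difference, 1.74 ± 0.46, which was not called with TMM.

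The 10 largest differences towards Rbpj-KO, with all clones outside the range of the 9 pairwise RGd2 changes, were of Ackr4, Apln, Cdx1, Ltb, Nrarp, Pax8, Grm2, Slc6a7, Trh and Cpsf4l. Trh, which encodes thyrotropin-releasing hormone, gave 11388, 10807 and 12180 normalized counts in 2i and 22789, 21345 and 23132 at N16h in Rbpj-KO. The RGd2 libraries gave 4937, 3626 and 1696 in 2i and 1223, 1188 and 863 at N16h. It rose by 0.97 ± 0.16 in the mutant and fell by 1.63 ± 0.17 in RGd2, a difference of 2.6 ± 0.23 (adjusted p = 5.17e-10; 2.4 with TMM). Apln, a peptide hormone gene, was not called in Rbpj-KO (0.38 ± 0.24) and fell by 2.78 ± 0.28 in RGd2. Ackr4, an atypical chemokine receptor, fell by 1.0 ± 0.23 and had a difference of 3.61 ± 0.45. The cyclin gene Ccnd2 rose by 4.54 ± 0.33 and by 2.64 ± 0.30 in RGd2, and that difference was not called with TMM.

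The 10 largest differences in the other direction were of Insm1, Spry4, Gm525, Foxi3, Vrtn, Otx2, Col6a5, Cds1, Sgk1 and Dnmt3l. Insm1, a zinc-finger repressor, gave 3, 1 and 0 raw counts in 2i and 3, 5 and 3 at N16h in Rbpj-KO. In RGd2 it gave 2 raw counts in 2i over all libraries and 459 at N16h, a ratio of 145 (95% counting interval 39.8 to 1197). Sgk1, a kinase induced by glucocorticoids, gave 6224, 5593 and 5222 normalized counts in 2i and 1274, 1256 and 1289 at N16h in Rbpj-KO. It fell by 2.15 ± 0.22, and by 0.93 ± 0.21 in RGd2.

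**Figure D5:**
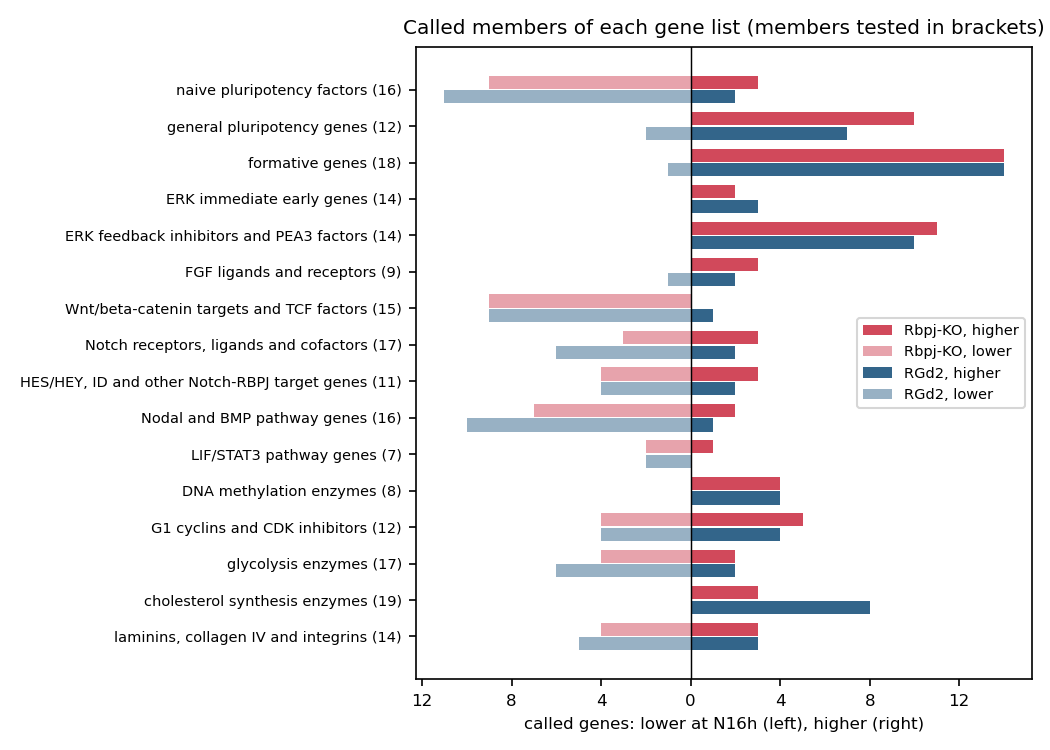
Number of members of each gene list called higher (right) or lower (left) at N16h over 2i, in Rbpj-KO and in RGd2, with the number tested in brackets. Most formative genes and ERK feedback genes were called higher in both genotypes, and most Wnt targets lower.

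The spike-in share of all counts was 1.25% ± 0.0128 (SD, n = 3) in Rbpj-KO 2i and 1.28% ± 0.0685 at N16h. An exact two-sided permutation test, not paired by clone, gave p = 0.50 (the smallest p with 3 against 3 is 0.10). Within clones, the share rose in c28 and c33 and fell in c36. In RGd2 the share was 1.19% ± 0.201 in 2i and 1.37% ± 0.0422 at N16h (exact permutation p = 0.30). Summed levels of markers of other cells are given as ranges over libraries, without a test. The summed FPKM of 7 trophoblast markers, which include Cdx2, ran from 34.8 to 41.3 in Rbpj-KO 2i and from 22.0 to 29.5 at N16h, beside 17.5 to 26.7 and 8.20 to 9.59 in RGd2. That of 7 markers of 2-cell-like cells ran from 0.333 to 1.12 over both Rbpj-KO conditions. In RGd2 it varied widely between libraries, from 3.92 to 26.0 in 2i (median 24.3) and from 4.12 to 33.2 at N16h (median 32.8). That of 7 mesendoderm markers ran from 12.4 to 13.8 in Rbpj-KO 2i and from 3.08 to 4.39 at N16h, beside 3.10 to 8.90 and 1.40 to 2.01 in RGd2. That of 6 neural markers ran from 35.2 to 36.5 in Rbpj-KO 2i and from 31.6 to 32.5 at N16h, beside 48.1 to 57.5 and 16.6 to 20.8 in RGd2. That of 7 primitive endoderm markers stayed under 10.3 and that of 6 fibroblast markers under 1.13 in every library. A sum does not give the direction of each member. In Rbpj-KO, 2 neural markers were called higher and 1 lower, with a median log2 fold change of 1.22 over the 4 past the FPKM minimum. Of the trophoblast markers, 2 were called higher and 3 lower. Only 1 mesendoderm marker passed the FPKM minimum, and it was called lower. The part of such cells in the responses was not tested.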

How the data were processed

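Total RNA was depleted of ribosomal RNA and made into directional libraries. According to the labels and the methods, adapters were removed by the authors (Trim Galore), TopHat2 placed the reads on mm10 plus the ERCC spike-in sequences, and featureCounts summed them per gene. The deposited values are raw counts per gene and per spike-in, with no normalization. Gene positions are those of the deposited table (GRCm38).

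Size factors came from median ratios, using the 52 spike-ins that no library held at 0. 19037 genes passed edgeR's filter on low counts and were fitted in edgeR 4.0.16 (quasi-likelihood) over all 32 libraries, with a term per condition and per line, so that Rbpj-KO was paired by clone, and p-values were adjusted by Benjamini-Hochberg over all of them. A gene was called at an adjusted p under 0.05 and a mean of at least 1 FPKM, computed from the gene's length and the library's gene total. Background shares are over genes past that minimum. List counts are over members tested, and those below the minimum could not be called. Values per library are counts over size factors. Errors on log2 fold changes are approximate standard errors of the 32-library fit. Each is the size of the log2 fold change over the square root of the quasi-likelihood F statistic.

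Pairing comes from the labels, which give the same clonal line in both conditions. Deviations of the same clone in 2i and at N16h correlated at 0.00, 0.03 and 0.10. Replicates within each group differed by more than sampling noise, with a chi-square of at least 5.45 per gene. The p-values measure the spread between these libraries. The methods count fewer RGd2 N16h replicates than the labels, and the labels were followed. The text names Rbpj, up to 4 members of each list with the highest mean FPKM and up to 4 with a called difference, all naive and formative members, and the 10 largest called changes and differences in each direction among protein-coding genes with at least 10 counts in a library. The members and lists were chosen with earlier results of these data known. Alternatives were TMM, other size factors, DESeq2 1.42.0, no block, fewer libraries and other filters. The fit was tested on simulated data.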

Additional observations from a re-analysis of the deposited data

Results flagged for a closer look

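The response to 2i withdrawal differed between Rbpj-KO and RGd2, by the test of the difference itself (edgeR, adjusted p under 0.05 over all genes tested), for 46 of the genes named here. The values are log2 fold changes in Rbpj-KO minus those in RGd2, with spike-in scaling, to be read against a median of 0.18 over all genes.

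Among naive factors the difference was 1.16 for Nanog, 0.68 for Esrrb, 0.94 for Klf2, 1.09 for Klf5, 1.13 for Tbx3, 1.03 for Nr0b1, 0.58 for Nr5a2, 1.34 for Prdm14 and 2.27 for Gbx2. Among formative genes it was -1.39 for Otx2, -0.74 for Sall2, 1.20 for Lef1, 1.03 for Sox4 and 1.90 for Ccnd2. It was -1.11 for Dnmt3l, of the DNA methylation list, 1.54 for Fgf17, 0.79 for Lefty1, 1.19 for Bmp4 and 1.88 for Inhbb. In the ERK and Wnt groups it was -0.64 for Dusp6, -2.42 for Spry4, -1.0 for Etv4 and 2.87 for Cdx1. In the Notch groups it was 0.86 for Notch1, 1.64 for Notch4, 0.81 for Jag1, 1.95 for Hes1, 2.34 for Hey1, 2.83 for Nrarp and 2.04 for Id4. Of the other genes that responded more positively in the mutant, it was 2.75 for Pax8, 1.74 for Spic, 3.61 for Ackr4, 3.16 for Apln, 2.86 for Ltb, 2.74 for Grm2, 2.72 for Slc6a7, 2.6 for Trh and 2.57 for Cpsf4l. Of those that responded more negatively, it was -2.41 for Gm525, -1.63 for Foxi3, -1.44 for Vrtn, -1.38 for Col6a5, -1.24 for Cds1 and -1.23 for Sgk1. It was -5.58 for Insm1, a fitted value that depends on the prior count since RGd2 2i held 2 raw counts in all.

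These calls are not equally stable over 19 alternatives of scaling, tool, design, filter and left-out library. Of the 46, 28 kept their call in every one. The call was lost in 11 for Klf2 and Nr5a2, 10 for Dusp6, 9 for Vrtn and Spic, 8 for Lefty1, 7 for Jag1 and Insm1, 6 for Lef1, 5 for Ltb, 4 for Esrrb and Ccnd2, 3 for Foxi3, 2 for Sall2, Inhbb and Col6a5, and 1 for Bmp4 and Sgk1.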

How the results depend on the processing

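The direction of the log2 fold change in Rbpj-KO was kept by all 93 named genes under every alternative that left out no library. Leaving out a library reversed Notch1 (to -0.10 without Rbpj-KO 2i replicate 29 and without Rbpj-KO N16h replicate 20) and Gadd45g (to -0.26 and -0.25 without Rbpj-KO 2i replicate 28 or Rbpj-KO N16h replicate 19), neither of which was called; their highest values were 0.11 and 0.53. Differences reversed for Klf4 (-0.06) and Axin2 (-0.04) with TMM and with median-of-ratios factors. That of Pou3f1 ran from -0.69 to 0.10, and was 0.10, 0.05, 0.10, 0.06, 0.03 and 0.02 without Rbpj-KO 2i replicate 28 or 30, Rbpj-KO N16h replicate 19 or 21, RGd2 2i replicate 32 or RGd2 N16h replicate 22. None of these 3 differences was called.

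Genes higher in Rbpj-KO numbered 1392, but 2215 with median-of-ratios factors on gene counts, 2106 with no FPKM minimum and 906 with a fold change of at least 1.5, where genes lower numbered 963. In RGd2, genes higher numbered 1039, but 2419 with TMM, 2764 with median-of-ratios factors and 1656 with no FPKM minimum. Genes lower in RGd2 numbered 4258, but 2724 with median-of-ratios factors and 2212 with the fold minimum. Genes with a difference called lower numbered 31, but 135 with TMM and 136 with median-of-ratios factors. RGd2-risen genes called higher in Rbpj-KO numbered 351, but 714 with no FPKM minimum. The RGd2-risen list was rebuilt under each alternative, so these counts are not shares of the same list. The cause was not tested beyond the construction of each alternative.

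Leaving out 1 library gave 990 to 1631 genes higher and 1108 to 2239 lower in Rbpj-KO, 861 to 1411 higher and 2951 to 5266 lower in RGd2, and 210 to 1104 higher and 16 to 54 lower for the difference. RGd2-risen genes called higher in Rbpj-KO numbered 328 to 410, and RGd2-fallen genes called lower 616 to 805, with both lists rebuilt each time. Without the replicate block on clone, 1363 genes were higher and 1915 lower in Rbpj-KO and 459 and 29 for the difference, and the calls of Klf2 (0.96) and Lefty1 (0.80) for the difference and of Hey1 (-0.48) and Id3 (0.37) in Rbpj-KO were lost. The spike-in share difference in Rbpj-KO ran from -0.000497 to 0.0646 percentage points, the lowest without Rbpj-KO N16h replicate 19. RGd2 2i replicate 33, with 5986857 counts, was the shallowest of the 12 libraries compared.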

Other observations

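Metabolic and matrix genes are read against the 11.8% of all genes called higher and 16.2% called lower in Rbpj-KO. Of 17 glycolysis enzymes, 2 were called higher and 4 lower, with a median log2 fold change of -0.05 beside -0.04 over all genes. Of 19 cholesterol synthesis enzymes, 3 were called higher and 0 lower in Rbpj-KO. In RGd2, 8 were called higher, beside 8.84% of all genes there. No difference between the genotypes was called. Of 14 laminin, collagen IV and integrin genes, 3 were called higher and 4 lower, again with no called difference. Of 7 LIF/STAT3 pathway genes, 1 was called higher and 2 lower. Stat3 itself fell by 0.41 ± 0.12 in Rbpj-KO, a call lost in 4 of 19 alternatives.

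Cell cycle genes split. Of 12 G1 cyclins and CDK inhibitors, 5 were called higher and 4 lower in Rbpj-KO, beside 11.8% and 16.2% of all genes. Cdkn1a, which encodes the inhibitor p21, fell by 2.67 ± 0.15, beside 2.79 ± 0.14 in RGd2, and Ccnd1 fell by 0.35 ± 0.10, a call lost in 5 of 19 alternatives. Of 8 DNA methylation enzymes, 4 were called higher and 0 lower in both genotypes. The background called higher was 11.8% in Rbpj-KO and 8.84% in RGd2. The summed FPKM of 6 germ cell markers was between 13.1 and 15.5 in Rbpj-KO 2i and between 29.2 and 30.8 at N16h. The sum also rose in RGd2, from between 11.96 and 22.6 in 2i to between 32.5 and 35.3 at N16h. Of the 6 markers, 3 were called higher and 0 lower in Rbpj-KO, and 3 higher and 1 lower in RGd2. No difference of the responses was called for these markers. Of 9 FGF ligands and receptors, 6 passed the FPKM minimum and 3 were called higher in Rbpj-KO, and Fgf15 rose by 3.55 ± 0.30.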
